A study of Drosophila melanogaster with 4 samples.

Results

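The genes described here were silent in control ovarian somatic cells and carried RNA once Mi-2 was knocked down. They were chosen by 2 measured values, a level below 0.1 FPKM in the siEGFP library and a level of at least 1 FPKM in the siMi2 library, with the transcripts of each gene summed. FPKM divides the fragments on a transcript by its length and by the depth of the library, so that values are per length and can be set beside each other between genes. Of 16574 genes with a symbol, 7323 lay below 0.1 FPKM in siEGFP and are called silent here, and 150 of these met both conditions, which is 2.05% of the silent genes. Because these values made the selection, the levels of the 150 genes in siMi2 and siEGFP are a description.

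The libraries came from OSCs, a Drosophila line of ovarian somatic cells derived from fGS/OSS cultures and left otherwise unmodified. The cells received 200 pmol of siRNA and were grown at 26 °C for 4 days, after which poly(A) RNA was sequenced. The groups were siMi2 (knockdown of Mi-2), siPiwi (knockdown of piwi), siRpd3 (knockdown of Rpd3, listed as HDAC1) and siEGFP (an siRNA without a target gene in these cells, used as control). Each group is 1 library of 1 cell line, so no difference has a replicate check and no test between conditions was possible. In a bulk culture, a low level in every cell and a high level in a few cells cannot be told apart.

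Mi-2 is an ATP-dependent nucleosome remodeler. In Drosophila it works with histone deacetylases in the dNuRD complex and with the zinc finger protein MEP-1 in the dMec complex, and both complexes are known for keeping genes of other cell fates off. Piwi is the nuclear Argonaute protein that, guided by piRNAs, silences transposable elements (TEs) in OSCs, and Rpd3 is a histone deacetylase. The study asked how Mi-2 and Rpd3 take part in Piwi-dependent silencing, and the gene values of the same libraries are what is described below.

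Mi-2 RNA was at 5.67 FPKM in siMi2, 69.3 in siPiwi, 83.6 in the library labelled siRpd3 and 34.4 in siEGFP. Piwi RNA was at 38.9 FPKM in siPiwi, against 73.5 in siEGFP. HDAC1 RNA was at 104 FPKM in the library labelled siRpd3, against 71.3 in siEGFP, so the targeted RNA was not lower under that label as deposited (log2 ratio 0.54, -0.15 after scaling to the median gene and 1.81 after scaling to RpL32). Each direction drawn from that library carries this limit. The paper reports that RNAi efficiency in OSCs was checked by western blot, Rpd3 protein included. The values here are RNA only and say nothing on protein. From the steps between FPKM values, 32638866 to 38060116 mapped reads per library were recovered. All 6 markers of ovarian somatic cells were at 1 FPKM or more in siEGFP, among them the transcription factor tj (110 FPKM in siMi2 and 64.0 in siEGFP) and the piRNA factor fs(1)Yb (51.2 in siMi2 and 53.3 in siEGFP). Over 7885 genes with a mean of at least 1 FPKM, the median log2 ratio to siEGFP was 0.12 in siMi2, 0.29 in siPiwi and 0.69 in the library labelled siRpd3. Levels, counts and differences are given as deposited and are not corrected for this shift, except where a scaling is named.

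The same rule applied to the other knockdowns found 37 silent genes at 1 FPKM or more in siPiwi (0.505% of 7323) and 158 in the library labelled siRpd3 (2.16%). These 3 counts share the siEGFP library. With at least 20 reads also required in the knockdown, 139 genes were left in siMi2 (1.9%), 31 in siPiwi (0.423%) and 147 in the library labelled siRpd3 (2.01%). The opposite pattern, a gene at 1 FPKM or more in siEGFP and below 0.1 FPKM in the knockdown, was found for 7 of 6584 genes in siMi2 (0.106%), 3 of 7024 in siPiwi (0.0427%) and 7 of 6219 in the library labelled siRpd3 (0.113%). Silent genes that were on thus outnumbered expressed genes that were off in each knockdown. After scaling each library to the median gene, the counts of silent genes that were on were 139 in siMi2, 31 in siPiwi and 91 in the library labelled siRpd3, and scaled to the ribosomal protein gene RpL32 they were 142, 61 and 434.

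**Figure D1:**
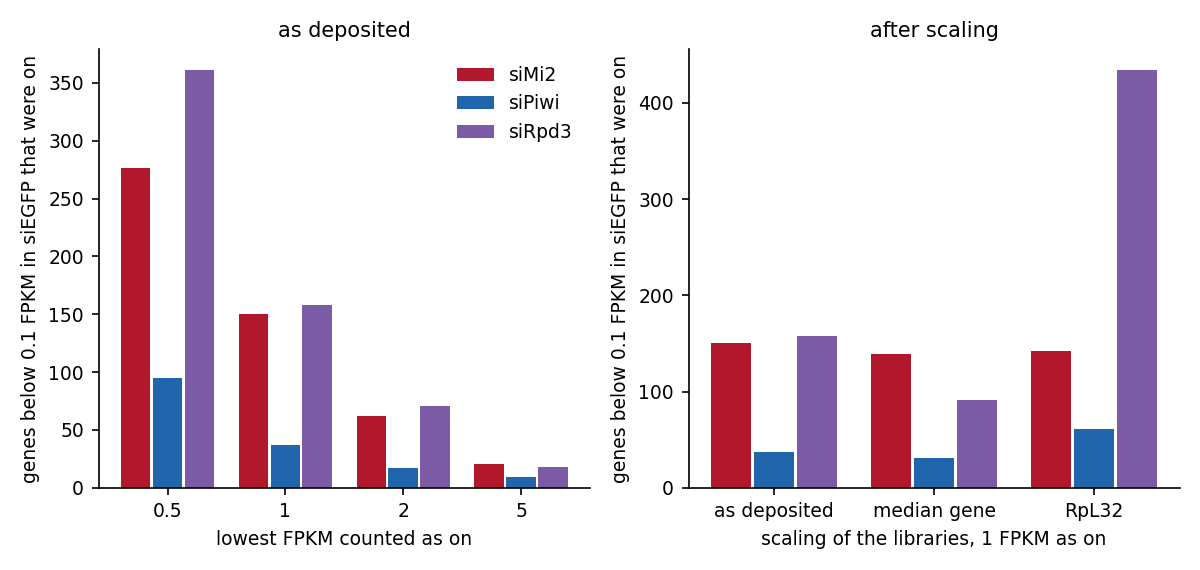
Number of genes below 0.1 FPKM in siEGFP that were on in siMi2, siPiwi and siRpd3 (1 library each), against the lowest FPKM counted as on (left) and against the scaling of the libraries (right). At 1 FPKM the bars stand at 150, 37 and 158, and the siRpd3 bar changes most with the scaling, to 91 with the median gene and 434 with RpL32.

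The 150 genes were spread over a wide range in siMi2, with most of them near the lower end. In siMi2, 88 lay between 1 and 2 FPKM, 41 between 2 and 5, 11 between 5 and 10, and 10 at 10 or more. The median was 1.72 FPKM in siMi2, 0.106 in siPiwi, 0.469 in the library labelled siRpd3 and 0.0282 in siEGFP. Summed over all of them, the level was 719 FPKM in siMi2, 63.4 in siPiwi, 231 in the library labelled siRpd3 and 5.30 in siEGFP, and the 3 highest genes held 34.6% of the siMi2 sum. The number of siMi2 reads behind a gene ran between 4 and 2696 with a median of 127, and 11 genes had fewer than 20. In siEGFP 56 of the genes were at 0, 75 had 1 to 6 reads and 19 had more, at most 23. Reads mostly came as pairs, since 73.1% to 75% of the read numbers from 1 to 50 were even, so intervals and floors below count 2 reads as 1 fragment. They cover counting error only.

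**Figure D2:**
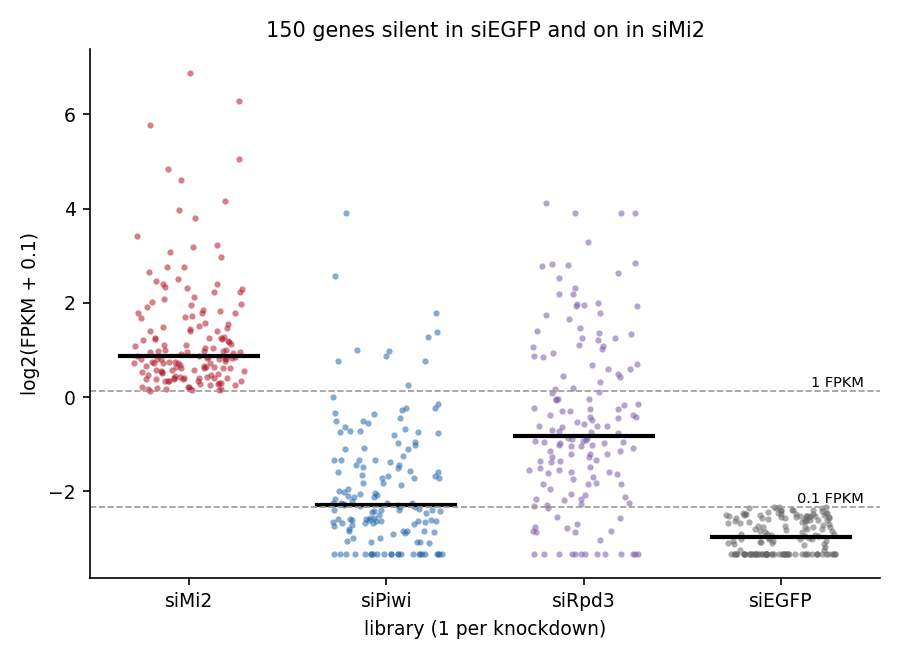
Level of each of the 150 genes in each library as log2(FPKM + 0.1), with 1 point per gene, a black bar at the median and dashed lines at 1 and 0.1 FPKM. The siMi2 and siEGFP points lie above and below the dashed lines by selection, and the medians of 0.106 FPKM in siPiwi and 0.469 FPKM in siRpd3 lie between those of siMi2 and siEGFP.

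At the edges of the selection the values were continuous. The genes just inside 1 FPKM in siMi2 were emp (1.002), MtnE (1.01), grnd (1.01), comm2 (1.02) and RunxB (1.02). Just outside it were AdoR (0.989), nau (0.978), CG5157 (0.973), CG9782 (0.964) and the antisense RNA asRNA:CR45213 (0.963). At the other edge, the genes just inside 0.1 FPKM in siEGFP were CG1090 (0.0987), Tsp66E (0.0985), CG14629 (0.0984), CG43051 (0.0963) and ex (0.0953), and those just outside were CG43110 (0.101), CG32032 (0.102), CG16758 (0.104), CG1632 (0.104) and CG13510 (0.104).

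The highest member was CG14984, a gene known by its annotation number only (3L:3951193-3952550, minus strand, dm6). It was at 117 FPKM in siMi2, 0.495 in siPiwi, 4.47 in the library labelled siRpd3 and 0.0769 in siEGFP, from 2696, 12, 96 and 2 reads. Its ratio of siMi2 to siEGFP was 1519, with an interval of 245 to 54107 because siEGFP rested on 1 fragment. The siMi2 level itself had a counting interval of 111 to 123 FPKM.

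CG9427 (3R:9625157-9626930, minus strand) followed with 77.5 FPKM in siMi2, 0.0620 in siPiwi, 0.315 in the library labelled siRpd3 and 0.0643 in siEGFP. CG31997 (4:154654-156060, minus strand), on the small, largely heterochromatic chromosome 4, was at 54.3 FPKM in siMi2, 0.374 in siPiwi, 0.646 in the library labelled siRpd3 and 0.0818 in siEGFP. Both genes were high in siMi2 alone and below 1 FPKM in the other 3 libraries. CG6357 (2R:13840053-13841743, plus strand) was at 28.5 FPKM in siMi2, 0.365 in siPiwi, 14.9 in the library labelled siRpd3 and 0.0756 in siEGFP. CG8468 (2R:14219898-14230620, plus strand) was at 13.9 FPKM in siMi2, 1.89 in siPiwi, 14.9 in the library labelled siRpd3 and 0.0757 in siEGFP. These 2 genes were thus high in siMi2 and in the library labelled siRpd3, and CG8468 also passed 1 FPKM in siPiwi.

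For genes at 0 in siEGFP only a lower bound of the ratio can be given, set against a floor of 3 fragments in that library with the siMi2 level taken as measured. The lower limit of the counting interval of the ratio, which takes in the error of both libraries, is given after it. CG30154 (2R:20533359-20533934, plus strand) was at 24.4 FPKM in siMi2, 0.104 in siPiwi, 1.51 in the library labelled siRpd3 and 0 in siEGFP, at least 75.7-fold higher in siMi2 than in siEGFP (lower limit 61.0). CG16799 (2R:20652557-20655096, minus strand), a gene of the lysozyme family, was at 10.7 FPKM in siMi2, 0.0408 in siPiwi, 0.0476 in the library labelled siRpd3 and 0 in siEGFP, at least 47.0-fold higher (lower limit 48.5). Below these, genes with no name beyond an annotation number were common: 63 of the 131 protein-coding members carry a CG number only. Among those with the highest siMi2 levels were CG6749 (9.22 FPKM), CG1136 (6.23), CG34305 (5.16) and CG5001 (5.15).

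A role known from other work was given to 62 members, and these were sorted into 9 groups after their values had been seen, so the groups describe the members and support nothing further. The sorting is not complete, since members with a known role such as MCU and the histone gene His4:CG33881 are in none of the groups. The largest held 12 genes of the cuticle and epidermis, the chitin-based outer layer that epidermal, tracheal and foregut cells secrete at their apical side. Its median was 1.40 FPKM in siMi2, 0.0785 in siPiwi, 0.0983 in the library labelled siRpd3 and 0.0685 in siEGFP. In this group 3 genes reached 1 FPKM in the library labelled siRpd3 and 1 did in siPiwi. Over all 150 members, 30.7% reached 1 FPKM in the library labelled siRpd3 and 7.33% in siPiwi. Each group count here and below is to be set beside these shares, and no difference from them was tested.

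The chitin-binding protein obst-E, which helps to shape the larval cuticle, led the group (2L:5762553-5766142, minus strand). It was at 17.8 FPKM in siMi2, 0.0527 in siPiwi, 0 in the library labelled siRpd3 and 0 in siEGFP, at least 108-fold higher in siMi2 than in siEGFP (lower limit 87.6). It was therefore high in siMi2 only. Yellow-f2, an enzyme of melanin formation, was at 5.62 FPKM in siMi2, 0.216 in siPiwi, 0.210 in the library labelled siRpd3 and 0.0745 in siEGFP. The chitinase Cht7 was at 5.41 FPKM in siMi2, 0.0266 in siPiwi, 0.124 in the library labelled siRpd3 and 0.0138 in siEGFP. The lectin-like slf (schlaff), which holds cuticle layers together, was at 3.98 FPKM in siMi2, 0 in siPiwi, 0.0371 in the library labelled siRpd3 and 0 in siEGFP. The same order, with siMi2 well above all other libraries, was seen for the chitin deacetylase verm (1.87 FPKM in siMi2 and 0.0743 in siEGFP), the cuticle protein Cpr51A (1.36 and 0), the Osiris family gene Osi6 (1.30 and 0.0648) and the ABC transporter snu (snustorr), which builds the cuticle barrier (1.10 and 0.0297). Neo, emp and Cht6 were the exceptions. Neo (neyo), a zona pellucida domain protein of the apical matrix, was at 1.43 FPKM in siMi2, 5.80 in siPiwi, 7.05 in the library labelled siRpd3 and 0.0727 in siEGFP. The scavenger receptor emp was at 1.002 FPKM in siMi2, 0.0662 in siPiwi, 1.81 in the library labelled siRpd3 and 0.0854 in siEGFP. The chitinase gene, Cht6, at 1.12 FPKM in siMi2, was at 0.690 in siPiwi, 1.15 in the library labelled siRpd3 and 0.0722 in siEGFP.

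**Figure D3:**
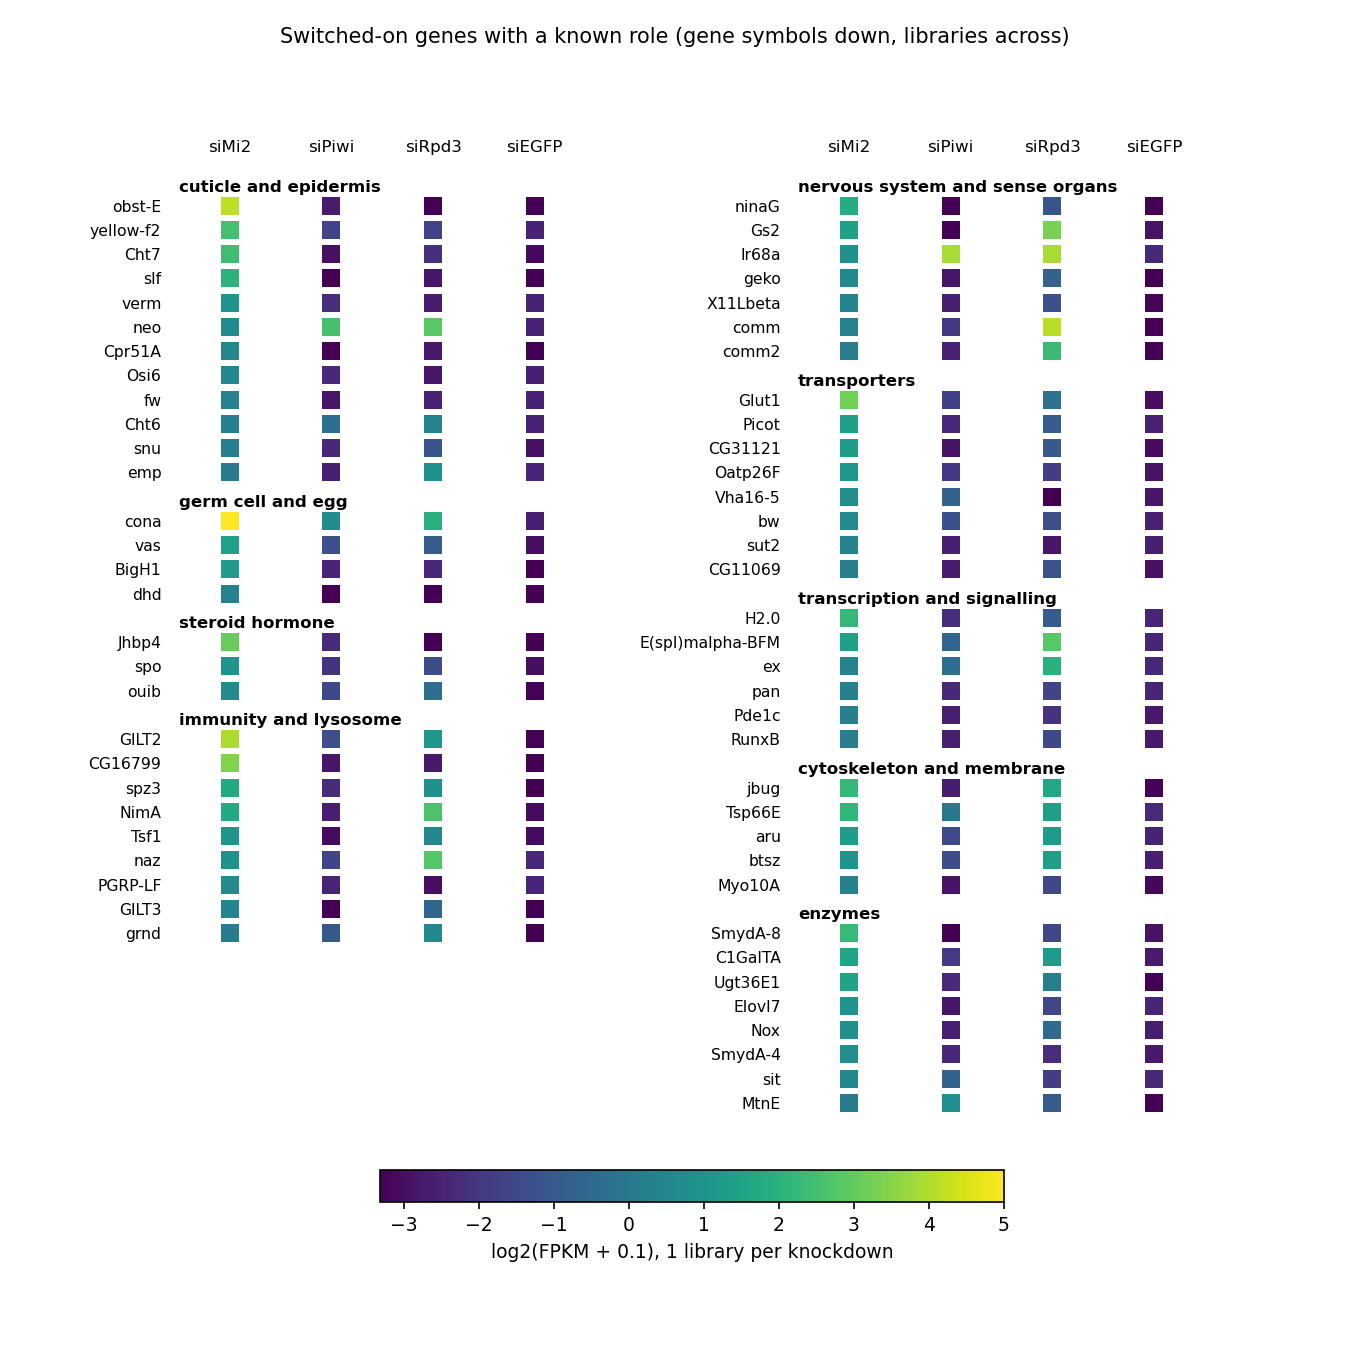
Level of 62 members with a known role, as a colour scale of log2(FPKM + 0.1), with gene symbols down the page by group and the 4 libraries across (siMi2, siPiwi, siRpd3, siEGFP, 1 each). The siMi2 column is bright by selection. Most genes of the cuticle group are dark in the other 3 columns, and comm, Ir68a, Gs2 and naz are brightest in siRpd3 or siPiwi.

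Genes of germ cells and the egg made up 4 members. Cona (corona), a component of the synaptonemal complex that pairs meiotic chromosomes, was at 33.1 FPKM in siMi2, 1.59 in siPiwi, 3.79 in the library labelled siRpd3 and 0.0636 in siEGFP (3R:18385828-18386887, plus strand). Vas (vasa), the RNA helicase that marks the germ line, was at 2.66 FPKM in siMi2, 0.298 in siPiwi, 0.429 in the library labelled siRpd3 and 0.0243 in siEGFP, from 219, 26, 32 and 2 reads. It shares 24.6% of its exon bases with solo, so part of its reads cannot be told apart from those of solo (0.398 FPKM in siMi2 and 0 in siEGFP). BigH1, the linker histone of germ cells and early embryos, was at 2.25 FPKM in siMi2, 0.0822 in siPiwi, 0.0958 in the library labelled siRpd3 and 0 in siEGFP. Dhd (deadhead), the maternal thioredoxin of the egg, was at 1.20 FPKM in siMi2 and at 0 in the other 3 libraries. Each of the 4 genes was highest in siMi2.

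Of 12 germ line markers, 5 were silent in siEGFP and vas alone of these was on in siMi2. The germ line gene osk was at 0 FPKM in siMi2 and in siEGFP, as were zpg and tej, while aub, above 0.1 FPKM in siEGFP and so no member, was at 8.06 FPKM in siMi2, 0.448 in siPiwi, 1.98 in the library labelled siRpd3 and 0.328 in siEGFP. The piRNA factor rhi (rhino), not silent either, lay the other way, at 0.317 FPKM in siMi2, 2.41 in siPiwi, 3.63 in the library labelled siRpd3 and 2.79 in siEGFP, and bgcn was at 1.89 in both siMi2 and siEGFP. Summed over the 12 markers the level was 36.5 FPKM in siMi2, 23.2 in siPiwi, 39.2 in the library labelled siRpd3 and 20.2 in siEGFP, and their part in the result was not tested. The largest part of each sum came from Sxl alone, at 19.1 FPKM in siMi2, 12.2 in siPiwi, 27.8 in the library labelled siRpd3 and 12.1 in siEGFP. Of the 7 genes of the synaptonemal complex, 3 were silent in siEGFP and cona alone was on. Those not silent went both ways. C(3)G and sunn were at 1.84 and 4.08 FPKM in siMi2, against 0.438 and 0.664 in siEGFP. Corolla and c(2)M were lower in siMi2, at 0.489 and 0.599 FPKM, against 2.34 and 1.14 in siEGFP.

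In the hormone group, spo (spook), a cytochrome P450 of early ecdysone synthesis known from the embryo and the ovary, was at 1.82 FPKM in siMi2, 0.135 in siPiwi, 0.284 in the library labelled siRpd3 and 0.0249 in siEGFP. Ouib (ouija board), a zinc finger factor of the larval prothoracic gland, where ecdysone is made, was at 1.45 FPKM in siMi2, 0.253 in siPiwi, 0.671 in the library labelled siRpd3 and 0 in siEGFP. Jhbp4, of the juvenile hormone binding protein family, was at 8.35 FPKM in siMi2, 0.1004 in siPiwi, 0 in the library labelled siRpd3 and 0 in siEGFP, at least 53.5-fold higher in siMi2 (lower limit 43.0). All 3 genes were below 1 FPKM outside siMi2. Among 11 genes of ecdysteroid synthesis, 5 were silent in siEGFP and these 2 were on. The late enzyme sad (shadow), which was not silent, was at 12.97 FPKM in siMi2, 0.533 in siPiwi, 1.05 in the library labelled siRpd3 and 0.215 in siEGFP, whereas dib was at 0 in siMi2 and 0.0276 in siEGFP, and spok at 0.0783 in siMi2 and 0.0925 in siEGFP.

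The immune and lysosomal group held 9 genes, of which 6 reached 1 FPKM in the library labelled siRpd3 and none did in siPiwi. Over all 150 members these shares were 30.7% and 7.33%. GILT2, of a family of lysosomal thiol reductases, was at 15.7 FPKM in siMi2, 0.295 in siPiwi, 2.07 in the library labelled siRpd3 and 0 in siEGFP, at least 68.2-fold higher in siMi2 (lower limit 54.96). Its neighbour and paralog GILT3 was at 1.29 FPKM in siMi2, 0 in siPiwi, 0.555 in the library labelled siRpd3 and 0 in siEGFP. The third member of that family, GILT1, was well expressed in all libraries, with 667 FPKM in siMi2, 590 in siPiwi, 448 in the library labelled siRpd3 and 377 in siEGFP. Spz3, a Spätzle family ligand, was at 3.19 FPKM in siMi2, 0.103 in siPiwi, 1.70 in the library labelled siRpd3 and 0 in siEGFP. The Nimrod receptor gene NimA was at 3.15 FPKM in siMi2 and 6.13 in the library labelled siRpd3, and naz (nazo), an antiviral effector, at 1.71 and 6.74. In siPiwi they were at 0.0606 and 0.219 FPKM, and in siEGFP at 0.0189 and 0.0915. PGRP-LF, a peptidoglycan receptor-like inhibitor of the IMD pathway, was at 1.43 FPKM in siMi2, 0.0776 in siPiwi, 0.0226 in the library labelled siRpd3 and 0.0804 in siEGFP. It overlaps UGP on the other strand over 44.4% of its exon bases, and UGP was at 19.9 FPKM in siMi2 and 28.4 in siEGFP. Of the antimicrobial and humoral immunity list, 27 of 38 genes were silent and none was on in siMi2, while 2 were in the library labelled siRpd3.

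Of 7 genes of the nervous system and sense organs, 4 were at 1 FPKM or more in the library labelled siRpd3 and 1 was in siPiwi. The 7 genes had a median of 1.43 FPKM in siMi2, 0.0678 in siPiwi, 4.89 in the library labelled siRpd3 and 0 in siEGFP. Comm (commissureless), which sorts the Robo receptor at the midline of the nerve cord, was at 1.17 FPKM in siMi2, 0.147 in siPiwi, 17.4 in the library labelled siRpd3 and 0 in siEGFP, from 84, 12, 1149 and 0 reads. Its neighbour and paralog comm2 was at 1.02 FPKM in siMi2, 0.0693 in siPiwi, 4.89 in the library labelled siRpd3 and 0 in siEGFP. Both were thus on in siMi2 but many times higher in the library labelled siRpd3. The glutamine synthetase gene Gs2, a marker of glia, was at 2.55 FPKM in siMi2, 0 in siPiwi, 9.68 in the library labelled siRpd3 and 0.0337 in siEGFP. Ir68a, a receptor of humidity-sensing neurons, was at 1.70 FPKM in siMi2, 14.8 in siPiwi, 14.8 in the library labelled siRpd3 and 0.0892 in siEGFP, and so was lowest in siMi2 among the 3 knockdowns. NinaG, an oxidoreductase that makes the visual chromophore, behaved otherwise, with 3.34 FPKM in siMi2, 0 in siPiwi, 0.352 in the library labelled siRpd3 and 0 in siEGFP. Geko and X11Lbeta were likewise highest in siMi2, at 1.43 and 1.28 FPKM.

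Among the 8 members placed in the transporter group none reached 1 FPKM in siPiwi or in the library labelled siRpd3. This holds for the chosen genes only. The mitochondrial calcium channel gene MCU, placed in no group, was at 6.89 FPKM in the library labelled siRpd3. The glucose transporter gene Glut1 was at 9.01 FPKM in siMi2, 0.207 in siPiwi, 0.743 in the library labelled siRpd3 and 0.0251 in siEGFP, from 1079, 23, 79 and 2 reads. The phosphate transporter-like gene Picot was at 2.61 FPKM in siMi2 and 0.0697 in siEGFP, and the organic anion transporter Oatp26F at 2.06 and 0.0338. Bw (brown), an ABC transporter that brings pigment precursors into eye cells, was at 1.46 FPKM in siMi2, 0.318 in siPiwi, 0.292 in the library labelled siRpd3 and 0.0697 in siEGFP. Its relative st (scarlet), which was not silent, was at 20.2 FPKM in siMi2, 0.575 in siPiwi, 3.20 in the library labelled siRpd3 and 0.940 in siEGFP, while w (white), the partner of both, was at 0.847 in siMi2 and 1.38 in siEGFP.

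The remaining named members were of several kinds. H2.0, a homeobox gene of the visceral mesoderm, was at 4.58 FPKM in siMi2, 0.111 in siPiwi, 0.424 in the library labelled siRpd3 and 0.0820 in siEGFP. The Runt family gene RunxB and pan (pangolin), the transcription factor of the Wingless pathway, were close to the lower edge at 1.02 and 1.12 FPKM in siMi2, and at 0.256 FPKM or less in the other libraries. The Bearded family gene E(spl)malpha-BFM, which acts in Notch signalling, was at 2.54 FPKM in siMi2, 0.544 in siPiwi, 6.98 in the library labelled siRpd3 and 0.0806 in siEGFP.

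Ex (expanded), a membrane-associated regulator of the Hippo pathway, is known to hold a TE insertion particular to OSCs in an intron and to be repressed through it. It was at 1.22 FPKM in siMi2, 0.679 in siPiwi, 3.81 in the library labelled siRpd3 and 0.0953 in siEGFP, from 291, 170, 816 and 23 reads. It was highest in the library labelled siRpd3, and of the members it had the most siEGFP reads.

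In the cytoskeletal and membrane group 4 of 5 genes passed 1 FPKM in the library labelled siRpd3. The filamin gene jbug (jitterbug) was at 4.60 FPKM in siMi2, 0.0584 in siPiwi, 3.05 in the library labelled siRpd3 and 0.00603 in siEGFP, and the tetraspanin Tsp66E at 4.28, 0.903, 2.46 and 0.0985 FPKM in the same order. Among the enzymes, SmydA-8, a SET and MYND domain protein, was at 4.82 FPKM in siMi2, 0 in siPiwi, 0.243 in the library labelled siRpd3 and 0.0312 in siEGFP. The glycosyltransferase gene C1GalTA was at 2.84 FPKM in siMi2, 0.175 in siPiwi, 2.21 in the library labelled siRpd3 and 0.0527 in siEGFP. The metallothionein gene MtnE was at 1.01 FPKM in siMi2, 1.61 in siPiwi, 0.419 in the library labelled siRpd3 and 0 in siEGFP, but on 16 siMi2 reads.

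In siPiwi, 70 of 150 members (46.7%) lay below 0.1 FPKM and 11 (7.33%) at 1 FPKM or more, against 26 of the 7173 other silent genes (0.362%). In the library labelled siRpd3, 24 (16.0%) lay below 0.1 FPKM and 46 (30.7%) at 1 FPKM or more, against 112 of the 7173 others (1.56%). All of these values share the siEGFP library that made the selection. A high siMi2 level also made it, so the differences and the highest library below lean to siMi2 by the rule. They are a description only. As log2(FPKM + 0.1), the median difference of siMi2 to siPiwi over the members was 3.11, and 144 were higher in siMi2 and 6 lower. The median difference of siMi2 to the library labelled siRpd3 was 1.78, and 124 were higher in siMi2 and 26 lower, of which 4 were more than 4-fold lower. By highest library, 122 members were highest in siMi2, 25 in the library labelled siRpd3 and 3 in siPiwi. A total of 15 were below 0.1 FPKM in both other knockdowns, and 8 were at 1 FPKM or more in both.

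**Figure D4:**
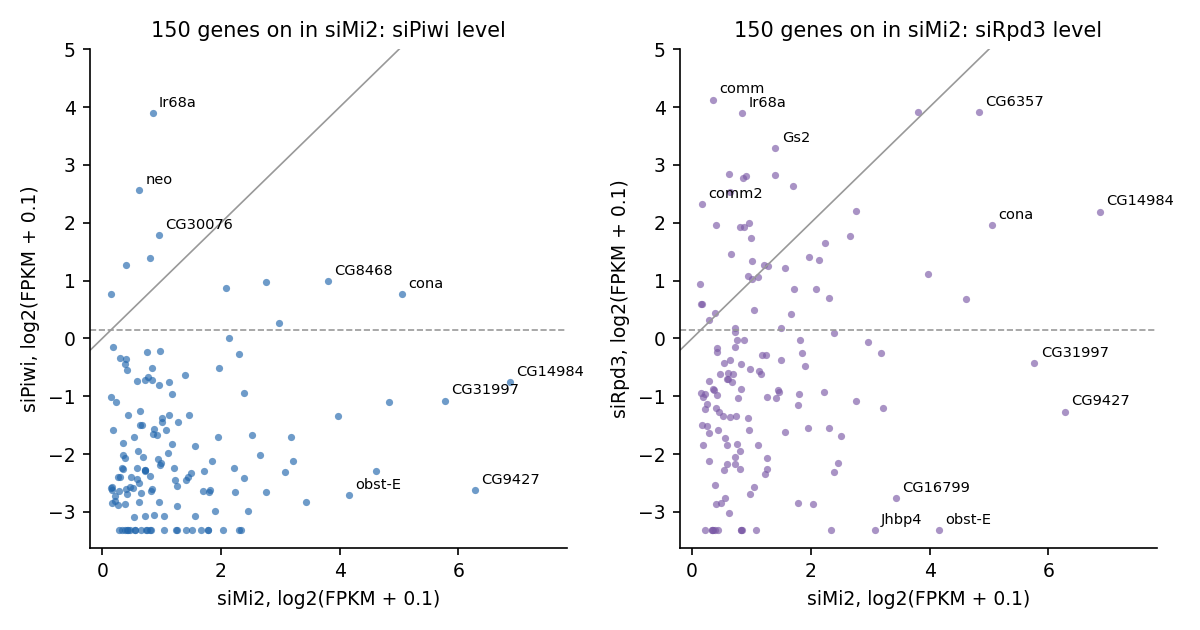
Level of the 150 genes in siPiwi (left) and siRpd3 (right) against that in siMi2, as log2(FPKM + 0.1), 1 point per gene, with a solid line of equal level and a dashed line at 1 FPKM. The genes were chosen by their siMi2 level, so points lean below the line of equality by selection. In siPiwi 11 points lie on or above the dashed line and in siRpd3 46. The 10 genes at 10 FPKM or more in siMi2 lie below the line of equality in both, except CG8468 on the right (13.9 FPKM in siMi2 and 14.9 in siRpd3).

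The 11 members at 1 FPKM or more in siPiwi were Ir68a and neo, given above, then CG30076 (1.83 FPKM in siMi2, 3.33 in siPiwi, 2.01 in the library labelled siRpd3 and 0.0447 in siEGFP), CG43185 (1.65, 2.51, 3.72 and 0.0571 in the same order), CG8468, lncRNA:CR45564 (6.69, 1.87, 4.48 and 0), MtnE, cona and the small RNAs snoRNA:Me28S-G2703a (2.31 FPKM in siPiwi), snRNA:U6:96Aa (1.72) and snRNA:U4:39B (1.10). Beside comm, Ir68a, CG8468, CG6357, Gs2, neo, E(spl)malpha-BFM and naz, the 10 highest in the library labelled siRpd3 included MCU, the channel of the mitochondrial calcium uniporter. MCU was at 1.78 FPKM in siMi2, 0.216 in siPiwi, 6.89 in the library labelled siRpd3 and 0.0208 in siEGFP. NimA, given above, was the other. Transcript length did not separate the members that were on in that library from those that were not: the median was 1789 nt for 41 protein-coding members at 1 FPKM or more and 1840 nt for 90 below, and the share at 1 FPKM or more lay between 29.4% and 34.8% in 4 classes of length.

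Families of the named members were counted as well, chosen after the values had been seen. For genes other than members, more than 4-fold higher than in siEGFP as log2(FPKM + 0.1) were 4.17% of 16424 in siMi2, 1.28% in siPiwi and 10.5% in the library labelled siRpd3. Of 12 peptidoglycan receptor (PGRP) genes beside PGRP-LF, 6 were more than 4-fold higher in siMi2, none in siPiwi and 3 in the library labelled siRpd3. Among the 6, PGRP-LA, PGRP-LC and PGRP-SB2 lay between 0.322 and 0.470 FPKM in siMi2 and at 0 in siEGFP. Their folds rest on the added 0.1 FPKM. PGRP-LB and PGRP-SC2 were at 77.4 and 17.8 FPKM in siMi2, against 3.89 and 0.292 in siEGFP. PGRP-SA, a receptor of the Toll pathway, was at 140 FPKM in siMi2, 1.22 in siPiwi, 6.41 in the library labelled siRpd3 and 2.29 in siEGFP. Of 13 yellow family genes beside yellow-f2, 4 were more than 4-fold higher in siMi2 and none in the other knockdowns, with yellow-b at 102 FPKM in siMi2, 2.31 in siPiwi, 5.86 in the library labelled siRpd3 and 1.39 in siEGFP. The other families held fewer such genes or were small. Genes beside the members that were more than 4-fold higher in siMi2 numbered 2 of 5 spaetzle family ligands, 2 of 6 synaptonemal complex genes, 2 of 9 genes of ecdysteroid synthesis, 2 of 13 juvenile hormone binding protein genes and 2 of 14 chitinase family genes. There was 1 such gene each among 4 chitin deacetylases, 7 SmydA genes, 2 thioredoxins, 2 eye pigment transporters and the 1 further commissureless gene. Comm3, the last of these, was at 4.60 FPKM in siMi2, 0.148 in siPiwi, 6.70 in the library labelled siRpd3 and 0.115 in siEGFP. The count was 2 of 33 tetraspanin genes beside Tsp66E, and none of 7 obstructor genes, 6 sugar transporter genes and the 1 further GILT gene. Among the raised synaptonemal complex genes was solo, at 0.398 FPKM in siMi2 and 0 in siEGFP, which shares exon bases with vas.

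Gene lists of tissues and families give the other side, namely which silent genes stayed off. Over 26 lists, from testis, neurons and muscle to receptors and homeotic genes, 893 of 1198 measured genes were silent in siEGFP and 8 of these were on in siMi2 (0.896%, against 2.05% of all silent genes), 4 in siPiwi and 18 in the library labelled siRpd3. The 8 genes were vas, obst-E, Cpr51A, Osi6, ninaG, Gs2, E(spl)malpha-BFM and Ir68a. The other 19 lists had no gene on in siMi2, among them the testis and sperm list (37 silent genes), the neuronal list (44), the homeotic and segmentation list (54), the odorant binding proteins (63), the digestive enzymes (42) and the accessory gland and seminal fluid list (47). Lists were filled by gene symbol or symbol pattern, so relatives under other symbols are missing from them. The cytochrome P450 list, with none of 29 silent genes on, lacks the member spo. Likewise, the hemocyte list lacks the member NimA. These counts hold for the listed symbols and not for whole families or tissues. Where lists had members these were few, with 2 of 112 silent cuticle protein genes and 1 of 151 silent chemosensory receptor genes. No file here holds levels in normal tissues, so the tissue in which each member is usually expressed is given from its known role only.

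By type, 131 members were protein-coding (87.3%, against 71.9% of the other silent genes), 9 were long noncoding RNAs (6%, against 18.6%), 2 were antisense RNAs, 4 were small nuclear RNAs and 4 were small nucleolar RNAs. The last 2 kinds have no poly(A) tail, and 7 of these 8 small RNAs rested on fewer than 20 siMi2 reads. The exception was snRNA:U4:39B, at 7.74 FPKM in siMi2, 1.10 in siPiwi, 0.857 in the library labelled siRpd3 and 0 in siEGFP, on 40 siMi2 reads. The long noncoding RNA lncRNA:CR44638 was at 4.97 FPKM in siMi2 and at 0 in the other 3 libraries, and lncRNA:CR44691 at 6.66 FPKM in siMi2, 0.0577 in siPiwi, 0.370 in the library labelled siRpd3 and 0 in siEGFP. LncRNA:CR42736 was at 4.85 FPKM in siMi2, 0.727 in siPiwi, 1.53 in the library labelled siRpd3 and 0 in siEGFP. The noncoding members lncRNA:CR44164, lncRNA:CR44741, lncRNA:CR43883, lncRNA:CR42794 and asRNA:CR43891, each with at least 20 siMi2 reads, lay between 1.16 and 1.66 FPKM in siMi2. Since the kit does not mark strand, reads of overlapping genes cannot be told apart. Exons of 43 members (28.7%) overlapped another gene, against 20.6% of the other silent genes. Overlap of 50% or more of the exon bases went the other way, with 4 members (2.67%) against 6.76% of the other silent genes. LncRNA:CR44691 overlaps CG6398 over 29.3% of its exon bases, and CG6398 was at 82.3 FPKM in siMi2 and 0.486 in siEGFP. AsRNA:CR43159, at 1.90 FPKM in siMi2 and 0.0694 in siEGFP, overlaps yellow-k over 74.3% (3.21 FPKM in siMi2 and 0.290 in siEGFP). His4:CG33881, at 1.54 FPKM in siMi2 and 0.0660 in siEGFP, is 1 of many near-identical histone genes and its value is uncertain.

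The members did not gather in the genome more than silent genes in general lay beside them. With a gap of 10 kb or less between gene bodies, 8 of 150 members (5.33%) had another member as a neighbour, and 363 of 7134 other silent genes (5.09%) had a member that near. The 8 formed 4 pairs. CG6749 (3L:9731238-9733807) and CG42268 (3L:9734012-9760395), 205 nt apart, were at 9.22 and 2.22 FPKM in siMi2. GILT3 (3R:23677358-23678421) and GILT2 (3R:23678895-23679855) lay 474 nt apart. The ABC transporter genes CG31121 (3R:24881466-24894605) and CG11069 (3R:24894742-24897613) lay 137 nt apart on opposite strands, at 2.30 and 1.06 FPKM in siMi2. SmydA-8 (X:2205515-2213809) and CG14052 (X:2223754-2224969) lay 9945 nt apart. With 50 kb, 25 members (16.7%) had such a neighbour, against 15.1% of the others, and the longest of 11 runs had 5 genes on 2R, namely Cpr51A, CG30076, CG12869, CG33469 and snoRNA:Me28S-G2703a. Comm and comm2 on 3L, and pan and CG31997 on chromosome 4, were pairs at this distance.

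Single members did lie beside expressed genes that were higher in siMi2. An adjacent gene above 0.1 FPKM in siEGFP that was at 1 FPKM or more and more than 4-fold higher in siMi2 was found for 17 of 150 members (11.3%), against 311 of 7134 other silent genes (4.36%). Members also had an expressed neighbour more often, 61.3% against 36.5%, and among genes with one the shares were 18.5% and 11.9%. Beside CG34305 (5.16 FPKM in siMi2 and 0 in siEGFP) lay CG14642, at 45.5 FPKM in siMi2, 1.01 in siPiwi, 3.43 in the library labelled siRpd3 and 0.957 in siEGFP. Beside CG43185 lay CG9029, at 56.1, 4.01, 6.63 and 0.890 FPKM in the same order, and beside Jhbp4 lay its paralog Jhbp5, at 91.4, 7.16, 4.69 and 8.01 FPKM. Jhbp4 shares 8.21% of its exon bases with Jhbp5, and reads of that stretch cannot be told apart. The same limit holds for other members among the 17 that overlap the raised neighbour. These are asRNA:CR43891 with CG13073 (96.7% of exon bases), asRNA:CR43159 with yellow-k (74.3%), lncRNA:CR44691 with CG6398 (29.3%) and CG34223 with CG13217 (0.702%). The 11.3% includes such pairs, and a share without them was not calculated.

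**Figure D5:**
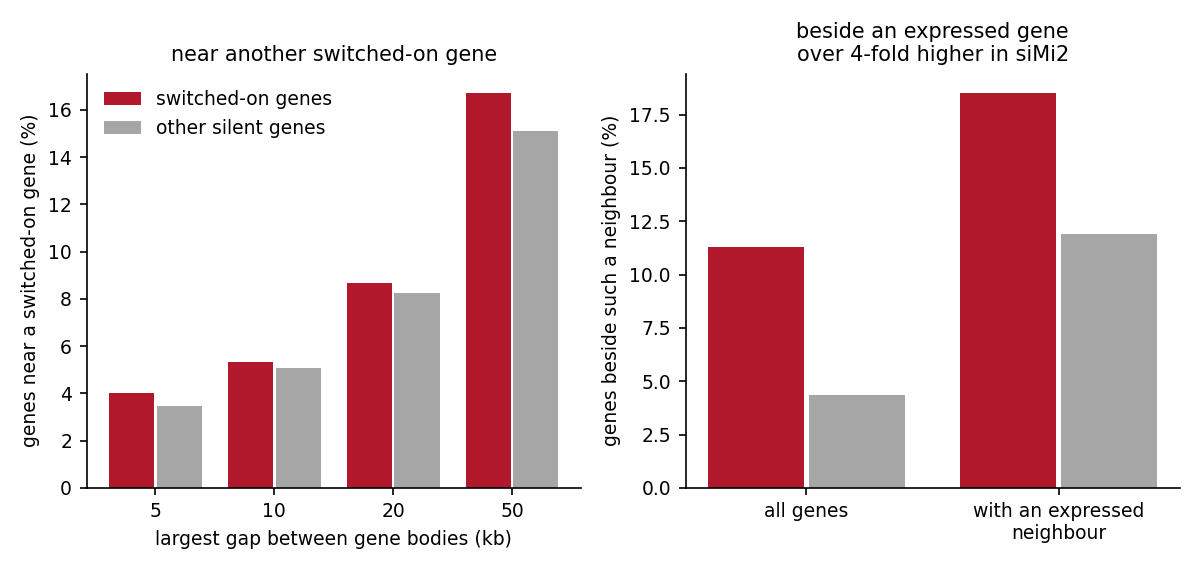
Share of the 150 switched-on genes (red, left bar of each pair) and of 7134 other silent genes (grey) that lie near another switched-on gene, against the largest gap allowed in kb (left), and that stand beside an expressed gene more than 4-fold higher in siMi2 (right). The bars differ little at every gap on the left, 5.33% against 5.09% at 10 kb, and are 11.3% against 4.36% over all genes on the right. The red bars on the right include members whose exons overlap that expressed gene.

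By chromosome arm the share of silent genes that were on was 2.54% on X, 1.70% on 2L, 1.86% on 2R, 1.95% on 3L and 2.38% on 3R, and 2 of 30 (6.67%) on chromosome 4. A TE insertion of the reference genome lay within the body of 12 members (8%), against 4.72% of the other silent genes, and within the body or 5 kb of it for 32 members (21.3%), against 23.4%. Insertions that OSCs carry beyond the reference genome, such as the one at ex, were not analysed here.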

How the data were processed

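The authors mapped adapter-trimmed HiSeq reads of TruSeq poly(A) libraries with bowtie2 2.2.4 (default settings) against dm6 and its transcripts, and deposited FPKM values per transcript. The TE table deposited beside it, also in FPKM, was not used for the genes. Of 35327 transcript rows, 98.9% were matched to RefSeq accessions, which gave symbols, and rows were summed per gene. Of these rows, 194 without a gene name were left out. Positions and TE insertions came from Ensembl BDGP6.54, which has dm6 coordinates. Whole reads were recovered from the FPKM steps (98.0% to 98.3% of values whole within 0.02 of a read). The recovery was tested on simulated data. Read counts served for exact Poisson and Clopper-Pearson intervals (95%), the floor of 3 fragments and the filter of 20 reads. Median differences and counts of genes more than 4-fold higher or lower used log2(FPKM + 0.1), which understates changes of low genes. Ratios given for single genes had no added value, or were set against the floor of 3 fragments.

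The members, lists and tests were chosen with earlier results of these data known. Named genes were the 25 highest in siMi2 among those with 20 reads, members of the gene lists, the 10 highest in each other knockdown, members of runs of 3 or more, the 5 nearest each threshold and the targeted genes; other names were chosen after their values were seen. Alternatives were other thresholds, scaling, reads, gene types, pseudocounts and gaps. Promoter motifs were not analysed here. Calculations used Python 3.11.15, scipy 1.17.1, pandas 2.3.3, numpy 2.4.6 and, for figures, matplotlib 3.10.9.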

Additional observations from a re-analysis of the deposited data

How the results depend on the processing

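No paired analysis was possible because each condition is 1 library and no value comes from a test. Of 60 values under alternative settings, 30 stayed within 1.5 times the reported count or within the spread of the members, and 30 moved. Most of these values are counts, which cannot change sign. Only the median log2 differences could, and they did not. The number of switched-on genes was 94 with silence set below 0.05 FPKM, 231 below 0.2 and 56 at 0 FPKM. It was 276, 62 and 21 with on set at 0.5, 2 and 5 FPKM, and 70 where siPiwi had to be below 0.1 FPKM as well, a setting chosen after seeing the data. For siPiwi the count was 63 with silence below 0.2 FPKM and 21 at 0 FPKM, then 95, 17 and 9 with on at 0.5, 2 and 5 FPKM, and 61 scaled to RpL32. For the library labelled siRpd3 it was 104, 254 and 60 with silence below 0.05, below 0.2 and at 0 FPKM, then 361, 71 and 18 with on at 0.5, 2 and 5 FPKM, 91 scaled to the median gene and 434 scaled to RpL32. At 0.5 FPKM, 27 members were reached in siPiwi and 74 in the library labelled siRpd3. At 1 FPKM the members reached in the library labelled siRpd3 numbered 46 as deposited. Scaling to the median gene gave 36 there, and scaling to RpL32 gave 83. The median log2 difference of siMi2 to siPiwi was 4.04 with a pseudocount of 0.01 FPKM and 1.24 with 1 FPKM, and that to the library labelled siRpd3 was 0.90 with 1 FPKM. Members beside another member numbered 13 at 20 kb, 25 at 50 kb and 4 without small noncoding and overlapping genes.

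Leaving out a library was not possible with 1 per condition. Depth limits the low end: 11 members rest on fewer than 20 siMi2 reads, and for the 56 at 0 in siEGFP the counts set no upper bound of the ratio to siEGFP.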
